A study of Mus musculus with 10 samples.

Results

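Genes of the Bcl2 family, which set whether a cell survives or dies through its mitochondria, were followed in mouse B cells after crosslinking of the B cell receptor and after prostaglandin E2. The list held 10 genes, matched to array probes by gene symbol or synonym: Bcl2, Bcl2l1, Mcl1, Bcl2a1c, Bcl2l12, Bcl2l11, Bbc3, Pmaip1, Bax and Bak1. Of these, 9 had a probe, 1 each, among 18300 named genes, and Bax was not analysed here. B cells were taken with a magnetic kit from spleens of female mice aged 2 months, either wild type (Ptger4+/+) or lacking the prostaglandin E receptor EP4 (Ptger4-/-). RNA was compared in pairs on 2-colour arrays, which give a ratio of a numerator RNA to a denominator RNA. In Ptger4+/+ and, separately, in Ptger4-/- cells, 2 h with F(ab')2 fragments against IgM was set over 2 h in medium. In each genotype, 24 h with anti-IgM and PGE2 was set over 24 h with anti-IgM, so both RNAs of this pair had received anti-IgM. The fifth comparison set the genotypes against each other, Ptger4-/- over Ptger4+/+, after 24 h with anti-IgM plus PGE2, and no 24 h RNA came from cells without anti-IgM. Each comparison had 2 arrays with the dyes exchanged, 10 arrays in all. The sources used here do not give the dose of PGE2, the number of mice, any pooling, or whether the exchanged arrays held the same extracts. The p-values may therefore cover technical spread only.

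The family has opposed branches that meet at the outer mitochondrial membrane. Prosurvival proteins (Bcl2, Bcl2l1 or Bcl-xL, Mcl1 and the A1 proteins encoded by the Bcl2a1 genes) hold the effectors Bax and Bak1 in check. BH3-only proteins (Bcl2l11 or Bim, Bbc3 or Puma, and Pmaip1 or Noxa) bind the prosurvival proteins and free the effectors, which then open the membrane, release cytochrome c and start the caspases. Resting B cells depend on survival signals from their receptor, Bim is known for removing B cells whose receptor is engaged without help, and A1 is known as a target of NF-κB downstream of that receptor. EP4 is coupled to cyclic AMP signalling.

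All values are log2 ratios, numerator over denominator, given for array 1 and then array 2 of a pair. The numerator RNA was in Cy3 on array 1 and in Cy5 on array 2, except in the Ptger4+/+ PGE2 pair, where the order was the reverse. Means are followed by the standard error of a limma fit over all arrays, and a gene was called when its Benjamini-Hochberg adjusted p over 22533 features was at most 0.05. That the deposited ratios run Cy5 over Cy3 is likely but not given: of 20 immediate-early genes, 5 in Ptger4+/+ and 6 in Ptger4-/- cells were then at least 2-fold higher on both arrays after anti-IgM, and 0 were at least 2-fold lower. The paired arrays correlated across features at r = 0.71 and 0.74 for anti-IgM (Ptger4+/+, then Ptger4-/-), 0.38 and -0.22 for PGE2 in the same order, and 0.57 for the genotypes. The PGE2 arrays of Ptger4-/- cells therefore did not repeat each other across features.

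The targeted gene did not check the genotype labels. Ptger4 was higher, at 0.46 and 0.52, in the RNA labelled Ptger4-/- than in Ptger4+/+ RNA under anti-IgM and PGE2 (mean 0.49, adjusted p = 0.00207). After 2 h of anti-IgM it rose in Ptger4+/+ cells, at 1.08 and 0.74 (0.91, adjusted p = 7.22e-05). It also rose in RNA labelled Ptger4-/-, at 0.59 and 0.53 (0.56, adjusted p = 0.000708). It fell with PGE2 in Ptger4+/+ cells, at -0.63 and -0.54 (-0.59, adjusted p = 0.000964), and read 0.06 and 0.03 in Ptger4-/- cells. For cells given anti-IgM alone for 24 h, reached by combining the 24 h comparisons, the genotypes differed by -0.14 ± 0.12 (adjusted p = 0.788). Where its probe lies relative to the deleted part was not analysed here, and a probe outside that part checks nothing, so Ptger4-/- and Ptger4+/+ below mean RNA labelled as such. Ratios carry no level, so the identity of the cells could not be checked against the level of a marker. Of 10 B cell markers measured, 6 were lower after anti-IgM in each genotype, the lowest being Cd79b, a chain of the B cell receptor, at -2.20 and -2.51. At 24 h, PGE2 gave 3 markers higher and 1 lower in Ptger4+/+ cells and 0 higher and 1 lower in Ptger4-/- cells, and the genotypes 1 higher and 3 lower. Cd79a, the partner chain of Cd79b, was the marker with the largest 24 h ratio in each, at 0.92, -0.81 and -1.18. Of 41 markers of T, NK, myeloid, dendritic, red and platelet cells, 6 and 8 were called after anti-IgM (Ptger4+/+, then Ptger4-/-), 5 and 0 after PGE2 and 6 between the genotypes, with median log2 ratios of 0.00 to 0.07. Over all features the called shares were, in the same order, 21.1%, 23.3%, 26.1%, 0.146% and 26.9%. The extreme of these 41 markers was Adgre1 (F4/80, of macrophages), at 0.69 after PGE2 in Ptger4+/+ cells and -0.83 between the genotypes. The part of other cells in the values below was not tested, and fewer cells of a type and less RNA per cell cannot be told apart in such samples.

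The members that moved most were Bcl2a1c, 1 of the A1 gene copies, and Bcl2l12, an atypical member reported in human cells to restrain caspases. Whether the Bcl2a1c copy gives a working prosurvival protein was not tested. Bcl2a1c rose about equally in both genotypes after anti-IgM and fell with PGE2 in Ptger4+/+ cells. Bcl2l12 fell after anti-IgM in Ptger4-/- cells. After anti-IgM, 1 member rose and 3 fell of 9 in Ptger4+/+ cells, where 21.1% of all features were called, 9.71% higher and 11.4% lower. In Ptger4-/- cells 1 rose and 4 fell (23.3% of features, 11.6% higher and 11.7% lower). With PGE2, 2 rose and 4 fell in Ptger4+/+ cells (26.1% of features, 9.11% higher and 17.0% lower). In Ptger4-/- cells PGE2 gave 0 called members by limma (0.146% of features, 0.00888% higher and 0.138% lower), with 2 members and 1880 features at an unadjusted p under 0.05. The split of the 33 called features hung on 1 array: 2 were higher with both arrays, 5 of 96 without array 1 and 42 of 47 without array 2. Between the genotypes under anti-IgM and PGE2, 4 members were higher and 2 lower in Ptger4-/- cells (26.9% of features, 15.9% higher and 11.0% lower). The median size of the members' log2 ratios was 0.09, 0.21, 0.22, 0.08 and 0.26 in these 5 comparisons, against 0.08, 0.08, 0.10, 0.05 and 0.11 over all features.

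**Figure D1:**
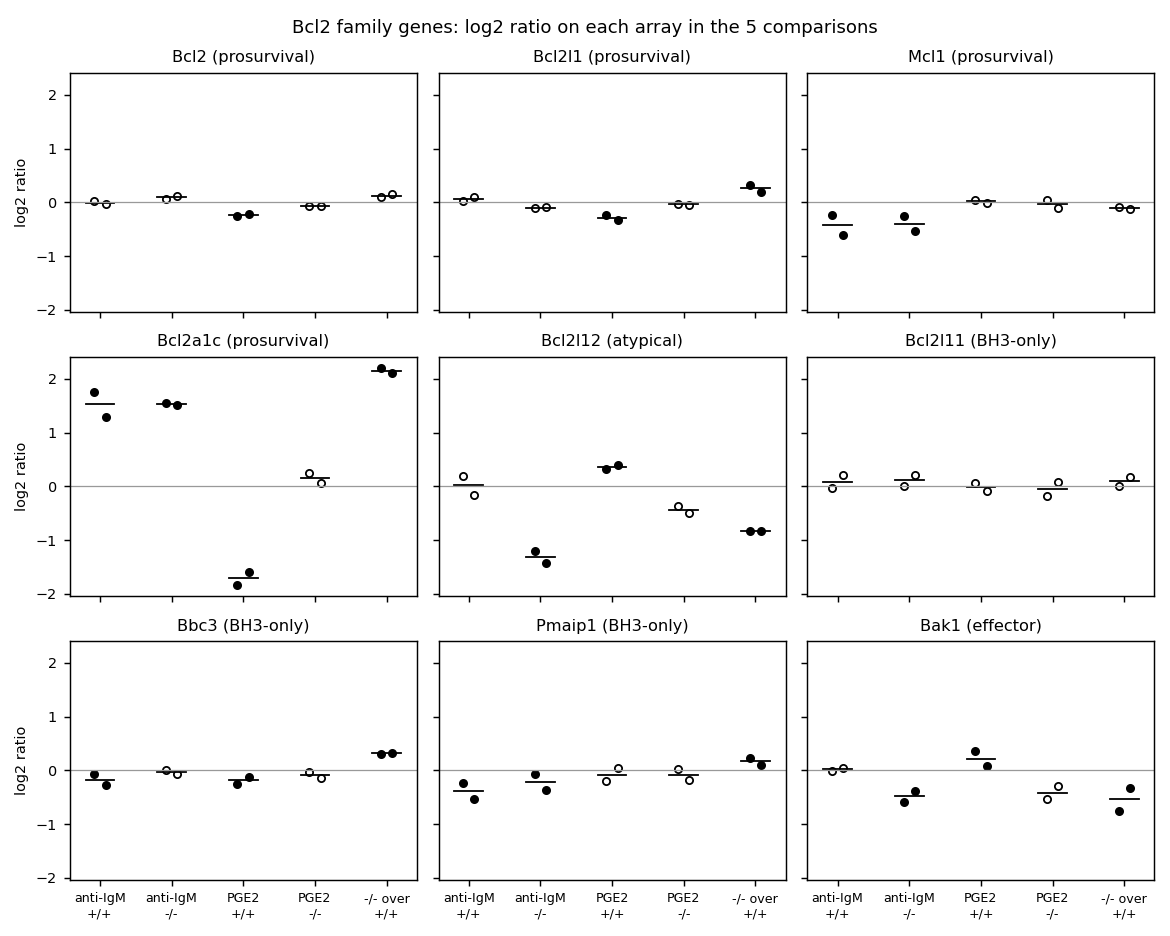
Log2 ratio (vertical axis) of each of 9 Bcl2 family genes on each array in the 5 comparisons (horizontal axis; anti-IgM at 2 h, PGE2 and genotypes at 24 h). Points are arrays, filled where the gene was called by limma, and bars are the mean of 2 arrays. Bcl2a1c spans -1.83 to 2.20 and Bcl2l12 -1.43 to 0.40, while Bcl2l11 stays within -0.17 and 0.22.

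The calls differed in how far they hung on 1 array. Leaving out array 2 took the anti-IgM calls of Ptger4+/+ cells from 4 to 2 members and those of Ptger4-/- cells from 5 to 3. Leaving out either PGE2 array of Ptger4+/+ cells took their calls from 6 to 2: without array 1 Bcl2a1c and Bcl2l1 were called, and without array 2 Bcl2a1c and Bcl2l12. Leaving out either genotype array took those calls from 6 to 4. Calls over all features also fell in these fits, from 4749 to 3424 and from 5259 to 3543 for anti-IgM without array 2. They fell from 5888 to 3874 and 2663 for PGE2 in Ptger4+/+ cells without array 1 and array 2, and from 6069 to 2418 and 2511 for the genotypes.

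The mouse A1 genes are near-identical copies on chromosome 9, so a probe for one may read others. Their promoter windows (RefSeq, GRCm38.p6, from 250 bases before to 50 after the annotated start) are shown because the probes for 2 copies, Bcl2a1c and Bcl2a1b, gave ratios of unequal size with PGE2. Bcl2a1c is at chr9:114329885-114330184 and Bcl2a1b at chr9:89199023-89199322, both on the plus strand. Capitals mark TGACG, the core of a cyclic AMP response element, searched on both strands.
Bcl2a1c: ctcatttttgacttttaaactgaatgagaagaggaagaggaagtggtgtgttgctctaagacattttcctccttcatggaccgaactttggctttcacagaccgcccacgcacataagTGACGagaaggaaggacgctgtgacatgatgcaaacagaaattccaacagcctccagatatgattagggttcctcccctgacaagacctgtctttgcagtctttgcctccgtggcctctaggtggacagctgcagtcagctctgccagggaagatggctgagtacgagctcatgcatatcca
Bcl2a1b: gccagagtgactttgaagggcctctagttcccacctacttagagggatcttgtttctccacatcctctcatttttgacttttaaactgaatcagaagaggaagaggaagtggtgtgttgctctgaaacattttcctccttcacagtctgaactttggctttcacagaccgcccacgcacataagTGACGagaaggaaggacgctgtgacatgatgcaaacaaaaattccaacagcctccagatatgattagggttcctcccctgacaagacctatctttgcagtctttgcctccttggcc
In a local alignment 224 of 234 bases were identical (95.7%), and the TGACG began at position -132 from the annotated start of Bcl2a1c and -66 from that of Bcl2a1b. TGACG was present in 20.8% of 32851 promoter windows. It was in 5 of the 13 windows of the 8 members searched, 1 window in each of 5 members. Pmaip1 was not searched. The full palindrome TGACGTCA, which holds TGACG, was in 1.79% of all windows and in 0 of the 13. A narrow NF-κB motif and a wide form with fewer fixed letters were searched in the same windows. The narrow motif was in 5.56% of all windows and in 3 of the 13, those of Bcl2l1, Mcl1 and Bbc3. Neither the Bcl2a1c nor the Bcl2a1b window held it. Both held the wide form, which was in 50.8% of all windows and in 11 of the 13. These matches describe letters and not bound sites.

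Bcl2a1c rose after anti-IgM and fell when PGE2 was added in Ptger4+/+ cells. After 2 h of anti-IgM its log2 ratios were 1.75 and 1.30 in Ptger4+/+ cells (mean 1.53 ± 0.07, 2.88-fold, adjusted p = 8.79e-06). The Ptger4-/- arrays gave 1.56 and 1.51 (1.53 ± 0.07, 2.89-fold, adjusted p = 6.46e-06). The responses differed by 0.00 ± 0.10 (95% interval -0.23 to 0.24, adjusted p = 0.995). The lowest of the 4 arrays was 1.30, and those of Ptger4-/- cells lay between those of Ptger4+/+ cells. At 24 h PGE2 gave -1.83 and -1.59 in Ptger4+/+ cells (-1.71 ± 0.07, 3.28-fold lower, adjusted p = 4.57e-05), the 23rd lowest mean of 22533 features. On the Ptger4-/- arrays PGE2 gave 0.25 and 0.07 (0.16 ± 0.07, adjusted p = 0.617). The PGE2 responses differed by 1.87 ± 0.10 (95% interval 1.64 to 2.10, adjusted p = 0.000346).

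Set directly against each other under anti-IgM and PGE2, Ptger4-/- cells had more Bcl2a1c than Ptger4+/+ cells, at 2.20 and 2.11 (2.15 ± 0.07, 4.45-fold, adjusted p = 7.58e-06). Both conditions of that pair are also the numerators of the PGE2 comparisons. Whether the same RNA extracts were used is not given in the labels, so these ratios cannot be taken as separate evidence. Following the chain of 24 h arrays back to anti-IgM without PGE2 left a genotype difference of 0.28 ± 0.12 (95% interval -0.00 to 0.57, adjusted p = 0.640). The Bcl2a1c calls held under every alternative processing tried.

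The Bcl2a1b probe moved with the same signs, by less where PGE2 was involved. After anti-IgM it read 1.05 and 1.35 in Ptger4+/+ cells (1.20 ± 0.07, adjusted p = 2.47e-05) and 1.21 and 1.24 in Ptger4-/- cells (1.22, adjusted p = 1.72e-05). With PGE2 it read -0.41 and -0.33 in Ptger4+/+ cells (-0.37, adjusted p = 0.00849), and 0.07 and 0.01 in Ptger4-/- cells (0.04, adjusted p = 0.947). Between the genotypes it read 0.41 and 0.38 (0.39, adjusted p = 0.00608), and its PGE2 responses differed by 0.40 ± 0.10 (adjusted p = 0.0393). The difference between the probes and cross-hybridisation between A1 transcripts were not tested, so the values belong to the probe named for each gene.

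Nfkb1, the gene of the p105 and p50 NF-κB subunit, is given beside A1 from the list of regulators of the members. It read 1.35 and 1.35 after anti-IgM in Ptger4+/+ cells and 2.27 and 1.98 in Ptger4-/- cells, a difference of 0.78 ± 0.12 (adjusted p = 0.0326). PGE2 took it to -1.86 and -2.08 in Ptger4+/+ cells (-1.97), the 12th lowest mean of all features. In Ptger4-/- cells PGE2 gave -0.25 and -0.08 (-0.16, adjusted p = 0.684), and the PGE2 responses differed by 1.80 ± 0.12 (adjusted p = 0.000493). Between the genotypes it read 2.38 and 2.33. Nfkb1 was named for the size of its ratios among 15 regulators measured. A link between Nfkb1 and the A1 genes was not tested.

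**Figure D2:**
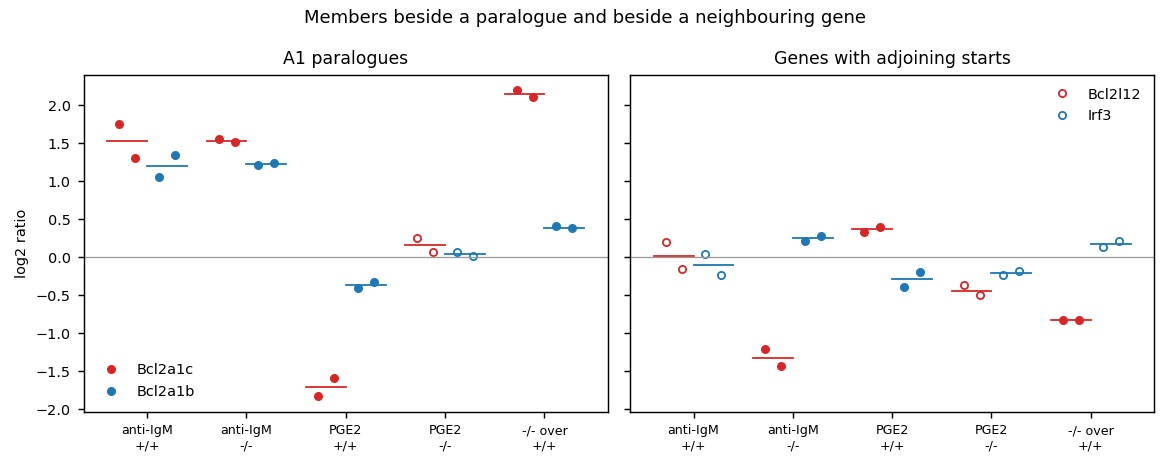
Log2 ratio (vertical axis) of Bcl2a1c and its paralogue Bcl2a1b, and of Bcl2l12 and its neighbour Irf3, in the 5 comparisons (horizontal axis). Points are arrays, filled where called by limma, and bars are means of 2 arrays. With PGE2 in Ptger4+/+ cells Bcl2a1c lies at -1.71 and Bcl2a1b at -0.37; after anti-IgM in Ptger4-/- cells Bcl2l12 lies at -1.32 and Irf3 at 0.25.

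The prosurvival genes Mcl1, Bcl2 and Bcl2l1 moved little. Mcl1, a short-lived protein that B cells need, fell after anti-IgM in both genotypes. It read -0.24 and -0.61 in Ptger4+/+ cells (-0.43 ± 0.08, adjusted p = 0.00611) and -0.25 and -0.54 in Ptger4-/- cells (-0.40 ± 0.08, adjusted p = 0.00754). Of all features, 11.3% and 14.4% had a mean ratio larger in size (Ptger4+/+, then Ptger4-/-). In each pair the array with the anti-IgM RNA in Cy5 was the lower, and without it neither call held. At 24 h its means were 0.02 and -0.03 with PGE2 and -0.11 between the genotypes, none called.

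Bcl2, the founding member of the family, was called in 1 comparison, PGE2 in Ptger4+/+ cells, at -0.26 and -0.22 (-0.24 ± 0.04, 1.18-fold lower, adjusted p = 0.00684). Without either array of that pair the call was lost. Its other ratios lay between -0.06 and 0.16. Bcl2l1, whose main product Bcl-xL supports activated B cells, fell with PGE2 in Ptger4+/+ cells, at -0.24 and -0.33 (-0.29 ± 0.05, adjusted p = 0.00631). It was higher in Ptger4-/- than in Ptger4+/+ cells under anti-IgM and PGE2, at 0.33 and 0.19 (0.26 ± 0.05, adjusted p = 0.00963). Without array 1 the genotype ratio was 0.16 and not called, and without array 2 the PGE2 ratio was -0.23 and not called. The Bcl2l1 PGE2 responses differed by 0.24 ± 0.07, short of the limit (adjusted p = 0.0742), and those of Bcl2 by 0.18 ± 0.06 (adjusted p = 0.116).

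Bcl2l12 shares its promoter region, on chromosome 7, with Irf3, the gene of an interferon transcription factor that lies on the opposite strand. Their annotated starts are 69 bases apart and their windows share 168 bases. The Bcl2l12 window (RefSeq, GRCm38.p6, chr7:44997530-44997829, minus strand) is shown for that overlap. Its TGACG, in capitals at position -154, lies outside the shared bases, and the Irf3 window has no TGACG.
Bcl2l12: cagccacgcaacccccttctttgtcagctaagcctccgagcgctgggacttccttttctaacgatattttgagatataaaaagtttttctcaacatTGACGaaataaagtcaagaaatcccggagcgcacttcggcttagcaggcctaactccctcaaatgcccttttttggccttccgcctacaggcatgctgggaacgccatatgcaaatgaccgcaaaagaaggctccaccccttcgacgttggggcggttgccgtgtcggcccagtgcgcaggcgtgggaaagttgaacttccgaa
After anti-IgM, Bcl2l12 read 0.20 and -0.16 in Ptger4+/+ cells (0.02 ± 0.06, adjusted p = 0.884), the arrays lying on either side of 0. In Ptger4-/- cells it fell to -1.21 and -1.43 (-1.32 ± 0.06, 2.50-fold lower, adjusted p = 8.51e-06). The genotypes' responses differed by -1.34 ± 0.09 (95% interval -1.56 to -1.13, adjusted p = 0.00601), the 23rd lowest difference of all features. Irf3 read 0.04 and -0.23 in Ptger4+/+ cells (-0.10, adjusted p = 0.460) and 0.21 and 0.28 in Ptger4-/- cells (0.25 ± 0.07, adjusted p = 0.0489).

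With PGE2, Bcl2l12 rose in Ptger4+/+ cells, at 0.33 and 0.40 (0.37 ± 0.06, 1.29-fold, adjusted p = 0.00602). Without array 1 this became 0.32 and was not called. In Ptger4-/- cells it read -0.37 and -0.50 (-0.44 ± 0.06, adjusted p = 0.0888), which missed the limit. The PGE2 responses differed by -0.80 ± 0.09 (95% interval -1.02 to -0.59, adjusted p = 0.00222). Ptger4-/- cells had less Bcl2l12 than Ptger4+/+ cells under anti-IgM and PGE2, at -0.83 on both arrays (-0.83 ± 0.06, 1.78-fold lower, adjusted p = 0.000132). Through the chain, the genotypes without PGE2 differed by -0.03 ± 0.11 (95% interval -0.29 to 0.23, adjusted p = 0.964). Irf3 moved the other way with PGE2 in Ptger4+/+ cells, at -0.39 and -0.20 (-0.29, adjusted p = 0.0240), and was not called in the other 24 h comparisons.

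Bak1, the effector that sits in the mitochondrial membrane, had mean ratios of the same sign as those of Bcl2l12 in the 5 comparisons. After anti-IgM it read -0.01 and 0.05 in Ptger4+/+ cells (0.02 ± 0.06, adjusted p = 0.886). In Ptger4-/- cells it fell to -0.58 and -0.39 (-0.48 ± 0.06, 1.40-fold lower, adjusted p = 0.00103). The difference of the responses, -0.50 ± 0.09 (95% interval -0.71 to -0.29), passed the limit narrowly (adjusted p = 0.0469). Without any 1 of the 4 anti-IgM arrays it lay between -0.61 and -0.39 and was not called.

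At 24 h PGE2 gave 0.37 and 0.08 for Bak1 in Ptger4+/+ cells (0.22 ± 0.06, adjusted p = 0.0397), a call that was lost without either array. Its Ptger4-/- ratios were -0.54 and -0.29 (-0.42 ± 0.06, adjusted p = 0.0997). Between the genotypes it was lower in Ptger4-/- cells, at -0.76 and -0.32 (-0.54 ± 0.06, 1.45-fold, adjusted p = 0.000926). The PGE2 responses differed by -0.64 ± 0.09 (95% interval -0.85 to -0.43, adjusted p = 0.00470), and the chain gave 0.10 ± 0.11 (adjusted p = 0.834). The Bak1 array with the numerator RNA in Cy5 was the higher in 5 of 5 pairs, with a dye effect of 0.12 on the log2 scale against a median size of 0.06 over all features. Without a dye term the Bak1 difference between the anti-IgM responses and that between the PGE2 responses were not called. Bcl2a1c and Bcl2l12 were lower with the numerator RNA in Cy5 in 5 of 5 pairs (dye effects -0.10 and -0.08), and Bcl2l11 was higher (0.10). The calls of Bcl2a1c and Bcl2l12 held without a dye term.

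The BH3-only genes gave mean ratios between -0.39 and 0.32. Pmaip1, a p53 target whose protein Noxa binds Mcl1, fell after anti-IgM, at -0.23 and -0.54 in Ptger4+/+ cells (-0.39 ± 0.05, adjusted p = 0.000879). The Ptger4-/- ratios were -0.07 and -0.36 (-0.21 ± 0.05, adjusted p = 0.0146), a call lost without either array. The difference of 0.17 ± 0.07 was not called (adjusted p = 0.317). Between the genotypes it read 0.23 and 0.11 (0.17 ± 0.05, adjusted p = 0.0388), again lost without either array. Its array with the numerator RNA in Cy5 was the lower in 5 of 5 pairs (dye effect -0.12), and without a dye term its 3 calls were lost.

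Bbc3, another p53 target, was higher in Ptger4-/- than in Ptger4+/+ cells under anti-IgM and PGE2, at 0.30 and 0.33 (0.32 ± 0.05, adjusted p = 0.00320). Without array 2 the ratio was 0.24 and not called. It fell slightly in Ptger4+/+ cells, at -0.07 and -0.27 after anti-IgM (-0.17 ± 0.05, adjusted p = 0.0473) and at -0.25 and -0.12 with PGE2 (-0.18 ± 0.05, adjusted p = 0.0312). Both of these calls were lost without either array of their pair. Bcl2l11, which encodes Bim, was called in 0 of the 5 comparisons. Its means were 0.09 and 0.11 after anti-IgM, -0.01 and -0.04 with PGE2 and 0.10 between the genotypes, and its 2 arrays had opposite signs in 3 of the 5 pairs.

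The responses of the genotypes were compared in 2 tests. For anti-IgM, 2 members (Bcl2l12 and Bak1) were lower in Ptger4-/- cells and 0 higher, where 1.74% of features were called, 0.608% lower and 1.13% higher. That split was not stable: 254 of 391 called features were higher, against 27 of 91 without array 1 of Ptger4-/- cells and 13 of 48 without array 2 of Ptger4+/+ cells. For PGE2, Bcl2a1c was higher and the same pair lower (12.7% of features, 9.33% higher and 3.33% lower). For the genotypes without PGE2, through the chain, 0 members were called by limma (0.00444% of features, 1 in number), with 1 member (Bbc3) and 1747 features at an unadjusted p under 0.05. The chain sums 3 comparisons and has the widest error, so a small genotype difference at 24 h of anti-IgM was not detectable.

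**Figure D3:**
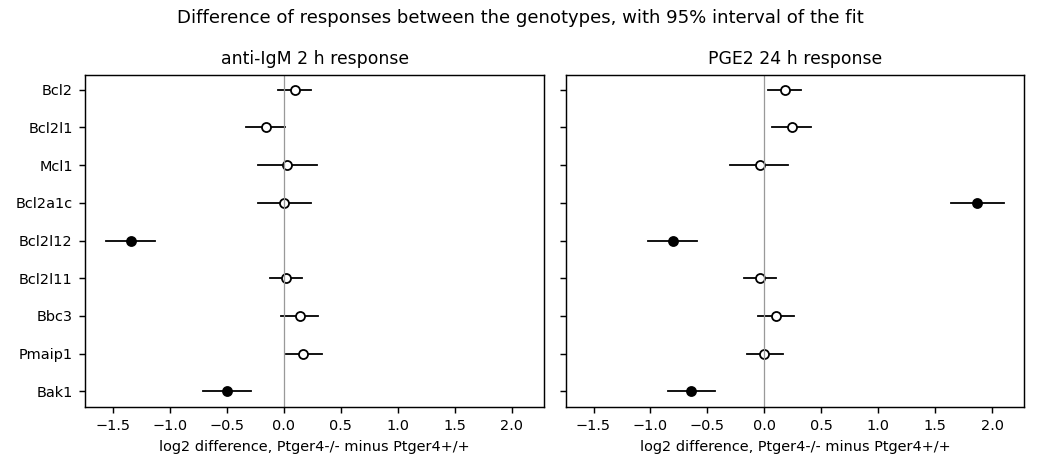
Difference between the genotypes' log2 responses (horizontal axis, Ptger4-/- minus Ptger4+/+) to anti-IgM at 2 h and to PGE2 at 24 h for the 9 genes. Points are limma estimates, filled where called, and lines are 95% intervals; Bcl2l12 lies at -1.34 and -0.80, Bak1 at -0.50 and -0.64, and Bcl2a1c at 0.00 and 1.87.

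Other Bcl2 relatives moved in both directions after anti-IgM. Of 15 measured, 3 rose and 4 fell in Ptger4+/+ cells and 5 rose and 3 fell in Ptger4-/- cells, with medians of 0.02 and -0.01. Bid, a BH3-only protein cut by caspase-8, read 0.77 ± 0.05 in Ptger4+/+ cells (adjusted p = 3.81e-05). In Ptger4-/- cells Bid read 0.65 ± 0.05 (adjusted p = 6.7e-05), and the responses differed by -0.12 ± 0.07 (adjusted p = 0.564). Bad, a BH3-only protein controlled by phosphorylation, fell to -0.81 and -0.93 in Ptger4+/+ and Ptger4-/- cells, and Bnip3l, a mitophagy receptor, to -0.86 and -0.76. With PGE2 in Ptger4+/+ cells 1 of the 15 rose and 6 fell (median -0.17), among them Bcl2l13 at -0.85 ± 0.06 (adjusted p = 0.000131) and Bnip3l at -0.67 ± 0.05 (adjusted p = 0.000196). Between the genotypes 6 were higher and 1 lower in Ptger4-/- cells (median 0.12), with Bcl2l13 at 0.73 and Bnip3l at 0.51. Of the 15, 46.7% and 53.3% were called after anti-IgM (Ptger4+/+, then Ptger4-/-), 46.7% with PGE2 in Ptger4+/+ cells and 46.7% between the genotypes. Over all features the shares were 21.1%, 23.3%, 26.1% and 26.9%.

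Of 17 genes of the apoptosome, the caspases and their inhibitors, 4 rose and 3 fell after anti-IgM in Ptger4+/+ cells, and 3 rose and 6 fell in Ptger4-/- cells. Cycs, which encodes cytochrome c, read 0.82 in each genotype (adjusted p = 0.000213 and 0.000177), and Casp2, an initiator caspase, fell to -0.61 and -0.93. With PGE2 in Ptger4+/+ cells 0 rose and 8 fell (median -0.19, against 0.01 over all features), Cycs reaching -0.63 ± 0.08 (adjusted p = 0.00113). Between the genotypes 5 were higher and 0 lower, including Cycs at 0.75 and the mitochondrial channel gene Vdac2 at 0.72. Cycs also differed between the PGE2 responses, by 0.78 ± 0.11 (adjusted p = 0.00447). Of the 17, 41.2% and 52.9% were called after anti-IgM (Ptger4+/+, then Ptger4-/-), 47.1% with PGE2 in Ptger4+/+ cells and 29.4% between the genotypes. The shares of all features were 21.1%, 23.3%, 26.1% and 26.9%, so the genotype share was near that of all features.

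Of 9 genes of the death receptor branch, 1 rose and 2 fell after anti-IgM in each genotype. Casp8, the caspase that death receptors activate, fell to -1.16 ± 0.06 in both (adjusted p = 1.33e-05 and 9.77e-06), and Tradd, a receptor adaptor, fell to -0.34 and -0.80. Fas, a death receptor, read 0.36 in Ptger4+/+ cells (adjusted p = 0.0450). Cflar, an inhibitor of caspase-8, was called in Ptger4-/- cells at 1.24 ± 0.20, but its arrays, at 1.91 and 0.57, were far apart. With PGE2 in Ptger4+/+ cells 1 of the 9 was called, Fas at -0.36 (adjusted p = 0.0414). Called shares of this list were 33.3% after anti-IgM in each genotype and 11.1% with PGE2 in Ptger4+/+ cells. All features gave 21.1% and 23.3% after anti-IgM (Ptger4+/+, then Ptger4-/-) and 26.1% with PGE2 in Ptger4+/+ cells.

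Of 15 regulators of the members, 3 rose and 6 fell after anti-IgM in Ptger4+/+ cells, and 4 rose and 6 fell in Ptger4-/- cells. Foxo1, a factor that drives Bim in many cells, fell to -0.96 ± 0.05 and -0.77 ± 0.05 (adjusted p = 9.92e-06 and 1.90e-05), while the survival kinase gene Pim1 read 0.84 and 0.85. With PGE2 in Ptger4+/+ cells 2 rose and 7 fell, with Nfkb1 lowest, and Mdm2, the ubiquitin ligase of p53, read -0.58 ± 0.05 (adjusted p = 0.000218). Between the genotypes 7 were higher and 2 lower, with Mdm2 at 0.73 ± 0.05 (adjusted p = 5.64e-05). With PGE2 in Ptger4-/- cells 0 genes of these 4 lists were called by limma.

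**Figure D4:**
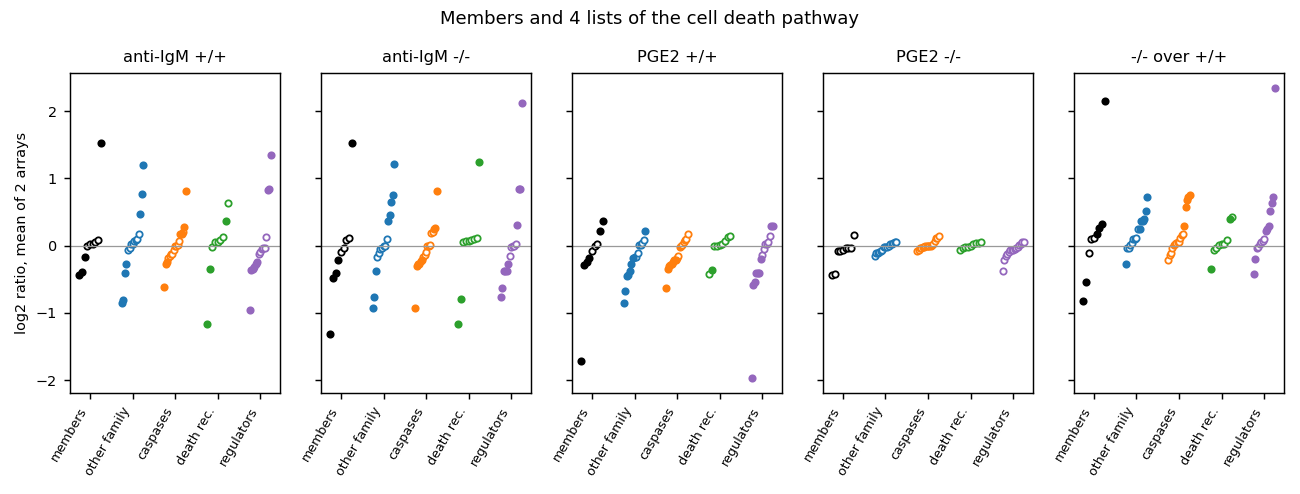
Mean log2 ratio of 2 arrays (vertical axis) for the 9 Bcl2 family genes and for 4 lists of cell death genes, ordered by value within each list, in the 5 comparisons (panels). Points are genes, filled where called by limma; with PGE2 in Ptger4-/- cells all points are open.

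The genes nearest to each called member were found by the root mean square difference of log2 ratios over 10 arrays, among 18238 other genes. Those nearest to Bcl2a1c were Gnl3, at 0.21 (r = 0.99), Brix1 at 0.30 and Pno1 at 0.33. Those nearest to Bcl2l12 were farther away, Prcp at 0.36 (r = 0.81), Ptpn6 at 0.37 and Trp53inp2 at 0.39. For Bak1 they were Klc2 at 0.13, Map3k1 at 0.16 and Hadha at 0.18. For Mcl1, Bcl2, Bcl2l1, Bbc3 and Pmaip1, whose largest mean ratios were smaller, the nearest genes lay at 0.04 to 0.08. They included Asnsd1, Prrc1, Mphosph6, Rreb1 and Serf2. Conditions recur across the arrays, and each r is a description over 10 arrays.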

How the data were processed

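Total RNA of splenic B cells was linearly amplified, dye-labelled and hybridised to oligonucleotide arrays, per the labels' protocols. Each deposited value was read as a log2 ratio, Cy5 over Cy3; the sources used here do not say how the authors normalised it. Base 10 could not give the lowest value, -9.03, within the 4.82 of a 16-bit scanner; natural logs (range 11.1) cannot be told apart from log2, and would make each value 1.44 times larger in log2.

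The labelled dyes set the sign of every ratio. Of 25344 probes, 21111 had 1 gene symbol, 4233 none and 0 several. Symbols were current for 17069, were updated through synonyms for 3974 and were kept for 68. Probes of a gene were averaged. No value was missing, no intensities were at hand, so no filter on dim probes or background was possible, and the number of arrays limited precision.

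1 limma fit (limma 3.58.1, R 4.3.3) over 10 arrays had 5 comparison terms and a dye term (4 residual and 3.13 prior degrees of freedom). It tested 8 contrasts, each with Benjamini-Hochberg adjustment over 22533 features at 0.05: the 5 comparisons, the differences between the genotypes' responses to anti-IgM and to PGE2, and the genotypes at 24 h of anti-IgM without PGE2, as their difference with PGE2 minus that between the PGE2 responses. The fit was run on simulated data with independent noise and no dye effect, so it could not show how dye effects or shared extracts act. Alternatives were no dye term, centring, scaling, only the arrays compared, leaving out arrays or features whose arrays disagreed, a minimum fold of 1.5 and a limit of 0.01. Named genes were the members, Ptger4, Irf3, up to 2 called genes per direction from each of 4 pathway lists with the same sign on both arrays and the largest ratios, and the 3 nearest genes; the named cell markers were the extremes of their lists, chosen after their values were seen. Members and lists were chosen with earlier results of these data known. Promoters came from RefSeq.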

Additional observations from a re-analysis of the deposited data

Results flagged for a closer look

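The genotypes differed in their response, by the limma contrast of the responses itself (Ptger4-/- minus Ptger4+/+, log2), in 5 cases. For anti-IgM the difference was -1.34 for Bcl2l12 (adjusted p = 0.00601) and -0.50 for Bak1 (adjusted p = 0.0469). For PGE2 it was 1.87 for Bcl2a1c (adjusted p = 0.000346), -0.80 for Bcl2l12 (adjusted p = 0.00222) and -0.64 for Bak1 (adjusted p = 0.00470). The Bak1 difference for anti-IgM was not called when any 1 of its 4 arrays was left out. Pairs of arrays are too few to test a single array as an outlier.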

How the results depend on the processing

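Of 26 calls of members over 8 contrasts, 6 held under every alternative: Bcl2a1c in 5 contrasts and Bcl2l12 after anti-IgM in Ptger4-/- cells; 0 called values reversed. In order of the 5 comparisons (anti-IgM in Ptger4+/+ and in Ptger4-/-, PGE2 in Ptger4+/+ and in Ptger4-/-, genotypes), 4, 5, 6, 0 and 6 members were called. Leaving out 1 array gave 2 to 3, 3 to 4, 2, 0 and 4. Testing against a minimum fold of 1.5 gave 1, 2, 1, 0 and 1. Without a dye term 2 were called after anti-IgM in Ptger4+/+ cells. Fitting only the arrays compared gave 1 for PGE2 in Ptger4+/+ cells and 2 for the genotypes. For PGE2 in Ptger4-/- cells, centring with scaling, or leaving out features whose arrays disagreed, gave 2 (Bcl2l12 and Bak1). For the difference of anti-IgM responses, 2 were called, against 1 without a dye term, 0 with only the arrays compared, 0 with the minimum fold, 1 at a limit of 0.01 and 1 without any 1 array. For the difference of PGE2 responses, 3 were called, against 1 with only the arrays compared, 1 with the minimum fold and 3 without any 1 array. The causes were not tested. Over all features the calls were 4749, 5259, 5888, 33 and 6069, and ranged over the alternatives from 752 to 5407, 994 to 5872, 251 to 6427, 0 to 167 and 510 to 6672; 391, 2852 and 1 for the differences and the chain ranged from 0 to 784, 123 to 3421 and 0 to 65. Scaling changed the split for PGE2 from 2053 higher of 5888 to 856 of 3639 in Ptger4+/+ cells, and from 2 of 33 to 27 of 167 in Ptger4-/- cells. No paired analysis was possible because the labels give no replicate numbers. Low signal could not be judged, since ratios carry no intensity.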
